A study of Mus musculus with 14 samples.

Results

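Mouse embryonic fibroblasts and the cells they had become after 7 days in a chemical reprogramming medium were compared gene by gene. The comparison used 6 of the 14 mouse libraries of the series, 3 of the starting fibroblasts (MEF) and 3 of the day 7 cells (D7). Of 55291 gene symbols in the deposited count table, 16937 had enough counts in these libraries and were tested, and 25120 had 0 counts in all 6. Per the labels, both groups derive from E13.5 embryos of the strain C57BL/6J. The medium is a Neurobasal and DMEM/F12 mixture with the supplements N2 and B27 (without vitamin A), albumin and basic FGF. It also holds 7 small molecules: CHIR-99021, which inhibits GSK3, LDN193189, which inhibits BMP receptors, A 83-01, which inhibits TGF-beta receptors, Hh-Ag1.5, which activates the Hedgehog pathway, RG108, which inhibits DNA methyltransferases, BMS-345541, which inhibits the IKK kinases, and CKI-7, which inhibits casein kinase. The protocol was meant to take fibroblasts through an eye-field stage towards retinal pigment epithelium (RPE), the pigmented layer behind the photoreceptors.

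Several features of the groups limit what the comparison measures. The labels give the MEF libraries the same medium as their treatment, although their cell type is given as MEF; titles set the groups. Cells that looked successfully induced were scraped for RNA, so D7 describes selected cells. Taken by title, the groups differ in medium, small molecules, time and selection at once. The parts of these, and of single compounds, cannot be told apart. The labels do not say whether replicates came from separate cultures or animals, and a p below therefore reflects only how far these libraries differ, which may be technical. Library totals ran from 32352405 to 40156109 counts, and 1 count was worth 0.0233 to 0.0310 CPM. CPM here are counts relative to library sizes after TMM scaling (trimmed mean of M values). The MEF libraries differed little, with a common biological coefficient of variation of 0.0408, against 0.153 at D7. D7 replicate 2 stood apart: 37 of the 9759 genes with a mean of at least 10 CPM at D7 lay 2-fold or more from the group median there, against 1 in replicate 1 and 5 in replicate 3. Levels are given for libraries 1, 2 and 3 in order, or as the mean ± SD of a group's 3 libraries, and changes are fitted log2 changes of D7 over MEF with their SE.

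The medium acts on pathways whose workings are well known. TGF-beta and BMP ligands signal through receptor kinases and Smad proteins, and in fibroblasts TGF-beta drives contractile fibres and matrix production. Hedgehog ligands relieve the repression of Smoothened by Patched and so release Gli factors, while GSK3 inhibition stabilises beta-catenin and mimics a Wnt signal. In the neural tube, Hedgehog specifies ventral and Wnt and BMP dorsal cell types.

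Most genes differed between the groups. The quasi-likelihood test of edgeR, with p adjusted by Benjamini-Hochberg, found 6238 genes higher at D7, 36.8% of those tested, and 5850 lower, 34.5%, so that 71.4% passed an adjusted p of 0.05 and 4849 genes did not. By 2-fold or more, 3666 genes were higher (21.6%) and 2411 lower (14.2%), and by 16-fold or more 799 were higher and 303 lower. In 6653 of the genes tested, called or not, every D7 library lay above every MEF library, and in 6284 every D7 library lay below. A lack of overlap was thus common, and where stated below it does not set a gene apart. Without D7 replicate 2 the counts were 6409 higher and 6102 lower, of which 3604 and 2469 by 2-fold or more. The median change over all genes was 0.04. With library totals in place of TMM it moved up by 0.286, and the higher share of calls went from 51.6% to 67.4%, so small changes below are relative to TMM scaling. Because these are bulk libraries, fewer cells of a type and less RNA per cell cannot be told apart in any of the values.

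**Figure D1:**
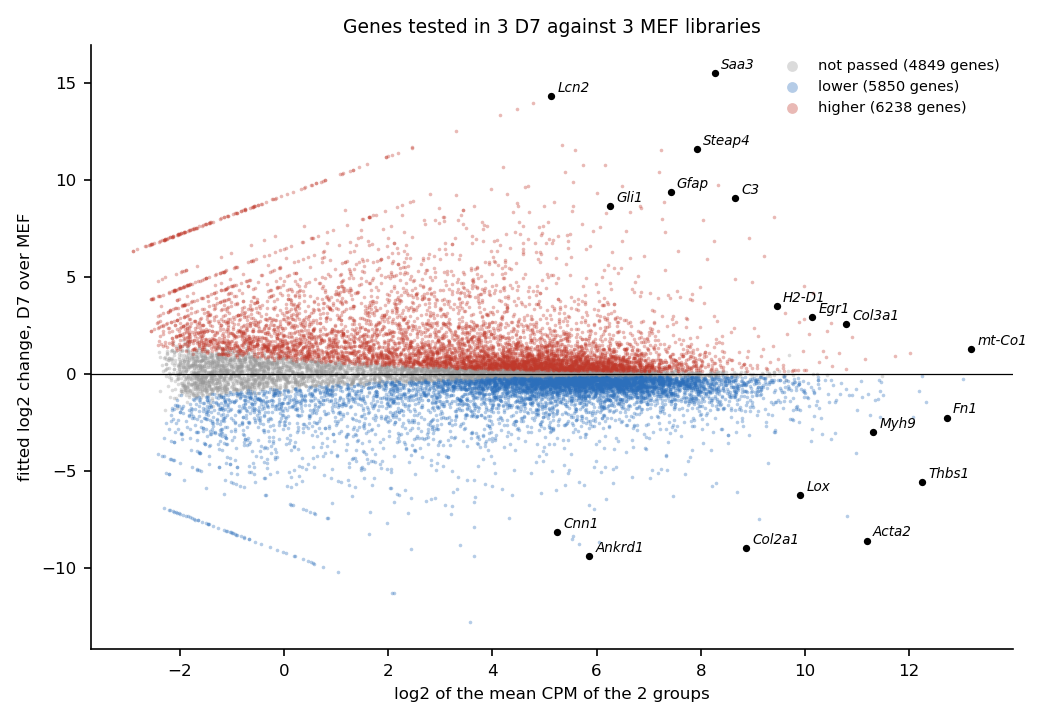
Fitted log2 change of D7 over MEF (vertical axis) against the log2 mean CPM of the groups (horizontal axis) for the 16937 genes tested, coloured by the test's call, with named genes as black points. The slanted lines at low levels are genes with 0 or few counts in 1 group, whose fitted change depends on the prior count. Acta2 and Saa3 mark the large changes among abundant genes in either direction.

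The genes with the largest rises included acute phase, glial and neural genes with few or no counts in the fibroblasts. Saa3, an acute phase serum amyloid, had 1 count over the MEF libraries and stood at 730.3, 564 and 549.9 CPM in the D7 libraries, a ratio of 62792 (95% exact counting interval 11269.6 to 2480190.0). Lcn2, an iron-binding acute phase protein, had 0 counts in MEF and 77.4, 63.8 and 68.2 CPM at D7, at least 2400.2-fold higher when 3 counts over the group are taken as the floor. Sox1, a factor of early neural cells, also went from 0 counts, to 65.0, 64.4 and 35.9 CPM (at least 1895-fold), and Dbx2, a factor of intermediate neural tube progenitors, to 32.9, 73.7 and 25.9 CPM (at least 1519-fold). In each of these genes every D7 library lay above every MEF library, as the rule that chose them required. Among the D7 libraries, the lowest Sox1 was in replicate 3 and the highest Dbx2 in replicate 2. Slc6a11, a GABA transporter of astrocytes, reached 46.3, 29.1 and 30.9 CPM from 0 counts (at least 1219-fold) and Mmd2 18.12, 25.9 and 15.5 CPM (at least 682-fold). Also from 0 counts, Gpr37l1, a receptor of astroglia, reached 9.24, 16.8 and 6.73 CPM (at least 375-fold) and Alb, serum albumin, 12.3, 10.4 and 10.4 CPM (at least 380.0-fold). Cacng5, an AMPA receptor auxiliary subunit, rose from 2 counts to 67.6, 98.1 and 77.0 CPM, a ratio of 4218 (95% exact counting interval 1167 to 34830.1), and Sez6, a neuronal membrane protein, from 3 counts to 93.7, 92.4 and 103 CPM, a ratio of 3310.4 (95% exact counting interval 1132 to 16055). Mlc1, a membrane protein of astrocyte end-feet, rose from 0.0988 ± 0.0889 to 302 ± 9.06 CPM, or 11.55 (SE 0.22, adjusted p = 2.33e-10) on the log2 scale. Steap4, a metalloreductase induced in inflammation, rose from 0.155 ± 0.0864 to 487 ± 74.4 CPM, or 11.59 (SE 0.22, adjusted p = 3.21e-10) on the log2 scale. Across the table, 137 tested genes had 0 counts in MEF and 58 had 0 counts at D7.

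The largest falls included contractile and cartilage genes. Col10a1, the collagen of hypertrophic cartilage, went from 24.4, 23.8 and 23.6 CPM in MEF to 0 counts at D7, at least 951-fold lower. Col2a1, the main cartilage collagen, stood at 918, 942 and 928 CPM in the MEF libraries and 2.85, 1.35 and 1.44 CPM in the D7 libraries, a log2 change of -8.98 (SE 0.22, adjusted p = 1.61e-09). Ankrd1, a YAP-responsive muscle ankyrin repeat protein, was at 111, 117 and 119 CPM in the MEF libraries and 0.395, 0.0467 and 0.0976 CPM in the D7 libraries, a log2 change of -9.40 (SE 0.26, adjusted p = 2.84e-09). Krt19, a keratin of simple epithelia, fell from 132 ± 5.22 to 0.320 ± 0.0347 CPM. Ogn, a small leucine-rich proteoglycan, fell from 93.6 ± 4.70 to 0.281 ± 0.126 CPM. The fall of Arhgap36 was from 20.9 ± 1.97 to 0.0437 ± 0.0423 CPM, that of Siglecg, an inhibitory lectin of B cells, from 25.1 ± 1.82 to 0.0318 ± 0.0276 CPM, and that of the predicted gene Gm50397 from 10.9, 10.8 and 10.7 CPM to 2 counts in all, a ratio of 644 (95% exact counting interval 178 to 5323). MEF and D7 libraries did not overlap in any of these genes, as the rule that chose them required. Other genes with 0 counts at D7 and the highest MEF levels were Gm41724, Lce1h, Krt20 and Gm12602, at least 343-fold, 336-fold, 163-fold and 133-fold lower.

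In CPM, rather than as a ratio, the largest falls were in matrix and cytoskeletal transcripts, with Col1a1, Acta2 and Myh9 described further on. Fn1, which encodes fibronectin, fell from 11190.0 ± 423 to 2326 ± 38.2 CPM. Thbs1, the matrix glycoprotein thrombospondin 1, fell from 9508 ± 103 to 195 ± 42.2 CPM. Actb, the cytoplasmic beta-actin, fell from 7098 ± 137 to 1506 ± 97.5 CPM, or -2.24 (SE 0.06, adjusted p = 6.86e-10) on the log2 scale. The largest rises in CPM were in mt-Co1, a mitochondrially encoded subunit of cytochrome oxidase, from 5489 ± 156 to 13250.5 ± 135 CPM, and mt-Cytb, from 2667 ± 94.9 to 5599 ± 465 CPM. They were followed by the collagen chains Col3a1, Col6a3 and Col18a1 and by Fth1, the ferritin heavy chain, from 815 ± 25.4 to 2998 ± 103 CPM.

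The contractile apparatus fell nearly as a whole. Of 28 actomyosin and smooth muscle genes, 27 fell, 25 of them by 2-fold or more against 14.2% of all genes, and Mylk, the myosin light chain kinase, did not pass, with a median change of -2.85 against 0.04 over all genes. Their summed level went from 29698 to 30454 CPM in the MEF libraries to 4123 to 4455 CPM in the D7 libraries. Acta2, the smooth muscle actin of activated fibroblasts, stood at 4539, 4733 and 4650.0 CPM in the MEF libraries and 11.4, 12.3 and 11.9 CPM in the D7 libraries, a log2 change of -8.61 (SE 0.07, adjusted p = 1.23e-12). Actg2, the enteric smooth muscle actin, was at 102, 102 and 101 CPM in the MEF libraries and 0.169, 0.140 and 0.366 CPM in the D7 libraries. Lmod1, which nucleates actin filaments in smooth muscle, was at 94.7, 87.3 and 94.1 CPM in the MEF libraries and 0.169, 0.257 and 0.293 CPM in the D7 libraries. Both groups were tight in these genes, and the highest D7 library lay far below the lowest MEF library. Cnn1, the smooth muscle calponin, fell from 75.3 ± 3.78 to 0.258 ± 0.115 CPM. Myh9, the nonmuscle myosin heavy chain, fell from 4516 ± 117 to 565 ± 37.9 CPM. Mylk changed by -0.22 (SE 0.27, adjusted p = 0.484), and passed without D7 replicate 2 at -0.67 (adjusted p = 2.60e-04). Tagln, usually an abundant actin-binding protein, was counted at only 4.91 CPM in MEF and 0.232 CPM at D7, but 67.9% of its exon bases are shared with other annotated genes, so its level is uncertain. Among 15 targets of YAP and TEAD, the growth regulators that respond to cell tension, 14 fell and 1 rose. Of all genes, 34.5% fell and 36.8% rose. Ccn2, a matricellular growth factor, fell from 821 ± 30.5 to 12.1 ± 0.632 CPM, F3, tissue factor, from 232 ± 1.93 to 15.7 ± 2.26 CPM, and Axl, a receptor kinase, from 1472 ± 30.02 to 285 ± 4.69 CPM. Wwc1, an upstream inhibitor of YAP, rose from 48.5 ± 1.31 to 110.5 ± 17.6 CPM.

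Serum response factor (SRF), which drives many of these genes, binds the CArG box. The 250 bases before the annotated start, searched on both strands for that box by its name (CC, then any 6 of A or T, then GG), hold it in 5 of the 24 actomyosin genes with a promoter in the RefSeq table for GRCm38.p6 (20.8%), against 174 of 12096 tested genes with a promoter (1.44%). The 4 printed here, chosen for their match after their values were seen, run 5′ to 3′ with the match in capitals, and the fifth was Myl6.
Vcl (chr14:20929148-20929210, plus strand): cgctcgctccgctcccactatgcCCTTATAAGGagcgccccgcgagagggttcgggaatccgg
Myl9 (chr2:156775273-156775342, plus strand): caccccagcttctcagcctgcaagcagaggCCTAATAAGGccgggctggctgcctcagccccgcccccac
Cnn2 (chr10:79988514-79988583, plus strand): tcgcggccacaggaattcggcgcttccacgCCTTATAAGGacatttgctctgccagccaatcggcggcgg
Srf (chr17:46556185-46556274, minus strand): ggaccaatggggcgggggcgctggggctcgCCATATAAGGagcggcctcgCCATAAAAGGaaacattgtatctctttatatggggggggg

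All 4 of these genes fell. Vcl, which encodes the adhesion protein vinculin, went from 594 ± 11.5 to 82.5 ± 6.65 CPM, or -2.85 (SE 0.07, adjusted p = 4.85e-10) on the log2 scale, with its match beginning 227 bases before the start. Myl9, a myosin regulatory light chain, fell from 348 ± 5.29 to 4.37 ± 1.01 CPM with a match 161 bases before the start, and Cnn2, a calponin, from 1206 ± 2.45 to 49.3 ± 10.9 CPM with a match 56 bases before it. Srf itself, with matches at 82 and 62 bases, fell from 158 ± 4.21 to 68.8 ± 1.81 CPM, or -1.20 (SE 0.06, adjusted p = 4.45e-08) on the log2 scale. The match is a description of letters and not a binding site, and 1 of 11 immediate early genes (Egr2, which rose) and 0 of 12 YAP targets held it in the same window.

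**Figure D2:**
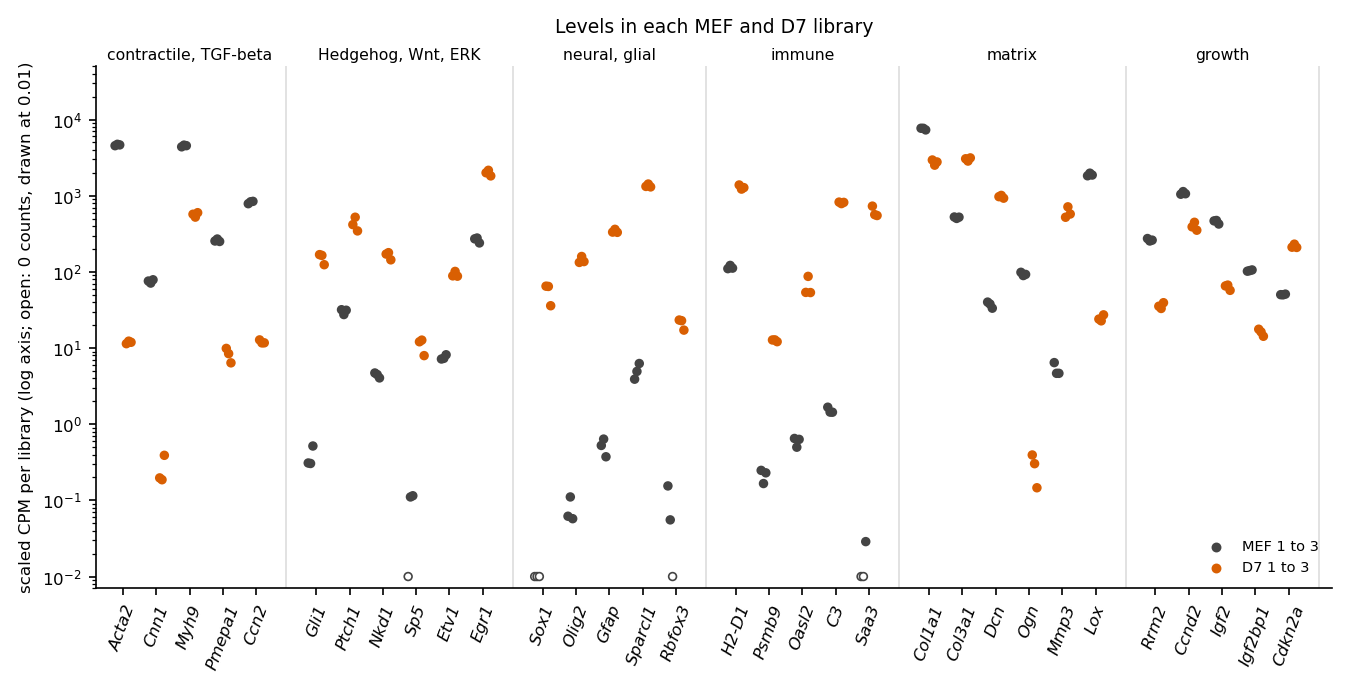
Scaled CPM of named genes (log axis) in each of the 3 MEF libraries (dark points) and the 3 D7 libraries (orange points), grouped by function; open points stand for 0 counts. The libraries of a group lie close together in nearly every gene and the groups do not overlap, from Acta2, which fell to about 12 CPM, to Saa3, which had 1 count in MEF.

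Targets of TGF-beta and BMP fell for the most part. The medium holds inhibitors of both receptor classes, and their part was not tested. Of 16 TGF-beta targets, 1 rose, 14 fell and 1 missed the threshold, with a median change of -1.73, where 34.5% of all genes fell. Pmepa1, which restrains TGF-beta signalling, stood at 254, 270.1 and 251 CPM in the MEF libraries and 9.89, 8.44 and 6.39 CPM in the D7 libraries, a log2 change of -4.97 (SE 0.14, adjusted p = 2.43e-09), with no overlap between the groups. Bhlhe40, a transcriptional repressor, was the target that rose, from 67.8 ± 2.69 to 152 ± 13.02 CPM. Tgfbi, a secreted adhesion protein, did not pass, at a change of -0.05 (SE 0.10, adjusted p = 0.650).

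Among 20 BMP targets, 2 rose, 14 fell and 4 missed the threshold. All 6 inhibitors of the pathway in the list fell: Smad6, an inhibitory Smad, stood at 85.2, 86.3 and 85.1 CPM in the MEF libraries and 2.59, 3.64 and 2.05 CPM in the D7 libraries. Grem1, a secreted BMP antagonist, fell from 423 ± 14.8 to 167 ± 16.6 CPM. The Id factors, helix-loop-helix inhibitors that BMP induces in many cells, moved less. Id1 was at 124, 133 and 125 CPM in the MEF libraries and 46.4, 49.99 and 46.4 CPM in the D7 libraries, a log2 change of -1.42 (SE 0.06, adjusted p = 2.72e-08), with no overlap between the groups. Id2 changed by 0.04 (SE 0.11, adjusted p = 0.724), Id3 by -0.26 (SE 0.11, adjusted p = 0.0608) and Id4 by -0.22 (SE 0.32, adjusted p = 0.566), and none of them passed. Id3, however, passed with the replicate block, with DESeq2, with limma-voom, with no filter and without D7 replicate 2, in the last at -0.40 (adjusted p = 1.93e-05). Id4 passed without that library as well, at -0.66 (adjusted p = 0.0474), and the Id factors' median change crossed 0 with library totals, from -0.24 to 0.05. Hey1 rose from 1.34 ± 0.413 to 32.12 ± 7.80 CPM. Msx1, a homeobox factor, rose from 4.04 ± 0.339 to 6.48 ± 0.686 CPM. Dlx5 fell from 2.59 ± 0.425 to 0.0824 ± 0.0227 CPM. Of 13 ligands of the family, 5 rose and 6 fell, against 36.8% and 34.5% of all genes. Bmp7 rose from 9.62 ± 0.416 to 196 ± 12.2 CPM. Bmp2 rose from 7.89 ± 0.273 to 101 ± 12.4 CPM, whereas Inhba, the activin A subunit, fell from 403 ± 2.51 to 11.1 ± 1.61 CPM. Tgfb1 did not pass, at -0.07 (SE 0.08, adjusted p = 0.422). Of 8 antagonists, 7 fell, among them Fst, follistatin, from 152 ± 4.75 to 10.4 ± 1.85 CPM, and Fstl1, from 1128 ± 11.8 to 424 ± 17.8 CPM, and Chrd, chordin, rose from 4.72 ± 0.318 to 16.3 ± 2.54 CPM.

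Hedgehog target genes rose in every D7 library. Gli1, a transcription factor that is both effector and target, was at 0.310, 0.305 and 0.517 CPM in the MEF libraries and 168, 165 and 124 CPM in the D7 libraries, a log2 change of 8.64 (SE 0.20, adjusted p = 7.76e-10). Ptch1, the receptor that feeds back on the pathway, stood at 31.9, 27.5 and 31.4 CPM in the MEF libraries and 417, 522 and 345 CPM in the D7 libraries, a log2 change of 3.82 (SE 0.15, adjusted p = 3.53e-08). Hhip, a decoy that binds the ligands, was at 10.2, 9.79 and 10.3 CPM in the MEF libraries and 47.7, 69.3 and 38.4 CPM in the D7 libraries. In these 3 genes D7 replicate 3 was the lowest of the D7 libraries and still above every MEF library. Of 5 genes on the receptor side 3 rose and 1 fell, where 36.8% of all genes rose and 34.5% fell. The fall was in Disp1, which releases ligand, at -0.38 (SE 0.07, adjusted p = 5.72e-04), a call that ended with library totals at -0.10 (adjusted p = 0.210). Gli3, mostly a repressor, did not pass, at -0.19 (SE 0.10, adjusted p = 0.127), but passed with no filter and without D7 replicate 2, in the latter at -0.27 (adjusted p = 0.0238). None of the 3 ligands passed, and their levels were low, with Shh at 0.393 CPM in MEF and 0.612 CPM at D7. The GLI site GACCACCCA, on either strand, was in the 250 bases before the start of 27 of 12096 tested genes (0.223%) and of 0 of 11 Hedgehog genes. At so low a share 11 genes are too few to show a difference, and bases outside the window were not searched.

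Transcription factors of both the ventral and the dorsal neural tube rose for the most part. Of 8 ventral factors tested, 6 rose, 0 fell and 2 missed the threshold, where 36.8% of all genes rose. Olig2, which specifies motor neuron and oligodendrocyte progenitors, stood at 0.0619, 0.111 and 0.0575 CPM in the MEF libraries and 133, 159 and 137 CPM in the D7 libraries, and its neighbour Olig1 at 0.0619, 0.111 and 0.460 CPM in the MEF libraries and 267, 339 and 278 CPM in the D7 libraries. In both genes D7 replicate 2 was the highest, and the groups did not overlap. Foxa2, of the floor plate, was at 0.288 CPM in MEF and 0.453 CPM at D7 and Nkx2-9 at 1.03 CPM in MEF and 0.816 CPM at D7, and neither passed. The median change of the ventral factors tested was 5.62. Of 9 dorsal factors tested, 8 rose and 1 fell, and 5 of the list had too few counts; the median change of those tested was 2.58. Zic1, a zinc finger factor of the dorsal neural tube, rose from 25.6 ± 0.510 to 143 ± 34.4 CPM, Zic2 from 4.39 ± 0.919 to 53.1 ± 13.2 CPM and Zic4 from 2.63 ± 0.593 to 22.1 ± 11.7 CPM. Msx2 fell from 27.3 ± 0.401 to 3.27 ± 0.495 CPM. Gsx1, a homeobox factor of the intermediate zone, went from 0 counts to 1.52, 1.17 and 1.76 CPM, at least 50.9-fold higher.

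Wnt targets rose for the most part, but not those of the cell surface and cycle. Of 21 tested, 13 rose, 7 fell and 1 missed the threshold, a median change of 1.67. Of all genes, 36.8% rose and 34.5% fell. Of 10 feedback genes tested 7 rose and 2 fell, and of 5 transcription factors 4 rose and 1 fell. Of 6 surface and cycle genes 2 rose and 4 fell, with a median change of -1.05. Nkd1, which feeds back on the pathway at Dishevelled, stood at 4.71, 4.49 and 4.05 CPM in the MEF libraries and 171, 179 and 144 CPM in the D7 libraries, a log2 change of 5.22 (SE 0.11, adjusted p = 2.19e-10). Sp5, a zinc finger factor that responds directly to beta-catenin, was at 0, 0.111 and 0.115 CPM in the MEF libraries and 12.1, 12.7 and 7.95 CPM in the D7 libraries, and Tnfrsf19, a receptor of the TNF family, rose from 1.95 ± 0.192 to 67.6 ± 6.21 CPM. Apcdd1, a membrane inhibitor of Wnt, rose from 24.7 ± 0.661 to 242 ± 63.8 CPM. The letters ATCAAAG, bound by TCF and LEF factors and searched on both strands, were in the window before the start of 2 of 15 of these genes, Sp5 and Tnfrsf19 (13.3%), against 333 of 12096 tested genes (2.75%). Fzd7, a Wnt receptor, fell from 212 ± 8.09 to 34.2 ± 5.99 CPM, Lgr6 from 13.6 ± 0.924 to 4.79 ± 1.35 CPM and Bmp4 from 91.5 ± 6.17 to 23.1 ± 2.90 CPM. Of 19 genes of FGF signalling and ERK feedback, 14 rose, 4 fell and 1 missed the threshold, a median change of 1.498. Etv1, an ETS factor that ERK induces, rose from 7.56 ± 0.531 to 92.7 ± 7.61 CPM. Fgfr4 rose from 0.719 ± 0.344 to 19.3 ± 4.94 CPM, while the phosphatases Dusp5 and Dusp4 fell, from 91.9 ± 1.55 to 19.2 ± 6.84 CPM and from 129 ± 6.79 to 71.3 ± 14.7 CPM. Fgfr1 did not pass, at 0.11 (SE 0.08, adjusted p = 0.222), though it did without D7 replicate 3, at 0.21 (adjusted p = 0.00568).

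Immediate early genes, which cells switch on within minutes of a stimulus, were mostly higher at D7. The D7 cells were selected and scraped for RNA, and the part of the harvest in these levels was not tested. Of 16, 13 rose and 3 fell, with a median change of 1.68, where 36.8% of all genes rose and 34.5% fell. Fos was at 18.6, 17.8 and 15.95 CPM in the MEF libraries and 1099, 1449 and 964 CPM in the D7 libraries and Fosb at 7.99, 7.13 and 7.56 CPM in the MEF libraries and 956, 1256 and 679 CPM in the D7 libraries. Egr1 stood at 272, 278 and 239.9 CPM in the MEF libraries and 2002, 2157 and 1821 CPM in the D7 libraries, a log2 change of 2.92 (SE 0.08, adjusted p = 1.14e-09). The D7 libraries varied in these genes, with replicate 2 the highest in the sum of the list, 8055 CPM against 7152 and 6074 CPM. Fosl2, another AP-1 subunit, fell from 399 ± 7.03 to 169 ± 22.7 CPM, Fosl1, 57.2% of whose exon bases are shared with another gene, from 31.9 ± 0.437 to 14.5 ± 3.23 CPM, and Myc from 144 ± 4.39 to 61.2 ± 20.2 CPM.

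Neural progenitor and astroglial genes rose for the most part. All 4 SoxB factors, which hold cells in a neural progenitor state, passed: beside Sox1, Sox2 was at 4.83, 4.77 and 5.001 CPM in the MEF libraries and 121, 149 and 95.1 CPM in the D7 libraries, a log2 change of 4.64 (SE 0.17, adjusted p = 1.88e-08). Sox3 rose from 0.172 ± 0.0913 to 5.43 ± 1.72 CPM. Sox21 rose from 0.241 ± 0.0318 to 48.0 ± 7.15 CPM. Of 14 other progenitor genes, 9 rose, 4 fell and 1 missed the threshold, against 36.8% of all genes higher and 34.5% lower. Notch1 rose from 52.7 ± 1.95 to 371 ± 11.3 CPM. Hes5, a Notch target, went from 0 counts to 1.07, 1.24 and 1.10 CPM, at least 39.0-fold higher, though 31.8% of its exon bases are shared with another gene. The intermediate filament genes Nes and Vim fell, from 357 ± 12.6 to 219 ± 53.8 CPM and 6068 ± 140.0 to 3294 ± 156 CPM, as did N-cadherin, Cdh2, from 317 ± 7.09 to 118 ± 7.85 CPM. Prom1, a progenitor surface protein, changed by -0.15 (SE 0.14, adjusted p = 0.377) and did not pass. Astroglial genes rose in 9 of 10 cases, with a median change of 6.00. Gfap, the astrocyte intermediate filament, stood at 0.526, 0.638 and 0.374 CPM in the MEF libraries and 333, 362 and 330.5 CPM in the D7 libraries, a log2 change of 9.37 (SE 0.12, adjusted p = 1.43e-11). Sparcl1, a matrix protein that astrocytes secrete, was at 3.90, 4.94 and 6.27 CPM in the MEF libraries and 1325, 1424 and 1306 CPM in the D7 libraries. Aqp4, their water channel, was at 0.124, 0.0555 and 0.287 CPM in the MEF libraries and 56.1, 117 and 45.1 CPM in the D7 libraries. The groups did not overlap, and D7 replicate 2 held more Aqp4 than the others combined. Gja1, connexin 43, was the member that fell, from 539.8 ± 13.8 to 205 ± 7.05 CPM.

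Genes of neurons, Notch signalling and cilia rose for the most part, and those of oligodendrocytes in part. Of 11 neuron genes tested, 9 rose and 2 fell, where 36.8% of all genes rose and 34.5% fell. Rbfox3, the neuronal splicing factor NeuN, was at 0.155, 0.0555 and 0 CPM in the MEF libraries and 23.3, 22.9 and 17.2 CPM in the D7 libraries. Snap25, of the synaptic vesicle fusion machinery, rose from 0.0576 ± 0.0556 to 5.05 ± 2.64 CPM, Map2 from 17.7 ± 0.671 to 125 ± 19.6 CPM, and Insm1 from 2 counts to 1.47, 0.980 and 0.634 CPM. Stmn2, a tubulin-binding protein of growth cones, fell from 27.7 ± 1.21 to 6.9996 ± 1.87 CPM. Tubb3 fell from 36.8 ± 2.61 to 25.3 ± 3.87 CPM, a call that ended with library totals. Of 8 oligodendrocyte lineage genes tested, 5 rose and 2 fell. Cnp, a myelin enzyme, rose from 15.8 ± 0.325 to 69.4 ± 11.5 CPM, and Cspg4, the NG2 proteoglycan, was at 441, 458 and 462 CPM in the MEF libraries and 125, 53.7 and 194 CPM in the D7 libraries, a log2 change of -1.87 (SE 0.43, adjusted p = 0.00765), with the D7 libraries far apart and a call that ended with no filter on low counts, at -1.87 (adjusted p = 0.0557). Pdgfra fell from 167 ± 7.16 to 130.1 ± 17.5 CPM, a call that ended with library totals at -0.07 (adjusted p = 0.500), and in a model of all 14 libraries, at -0.39 (adjusted p = 0.271). Mbp, myelin basic protein, was at 14.8, 18.5 and 17.8 CPM in the MEF libraries and 9.95, 12.8 and 54.8 CPM in the D7 libraries: the highest value was in D7 replicate 3, the groups overlapped, and the change did not pass, at 0.60 (SE 0.65, adjusted p = 0.440), while without that library it was -0.58 (adjusted p = 0.00489). Of 16 Notch genes, 12 rose, 2 fell and 2 missed the threshold, among them the receptor Notch2, and all 5 ligands were among those that rose, with Dll1 from 0.189 ± 0.136 to 16.9 ± 2.36 CPM. The target Nrarp rose from 2 counts to 1.38, 1.17 and 0.464 CPM, though 79.4% of its exon bases are shared with another gene, and the target Hes1 fell from 50.6 ± 4.87 to 18.5 ± 3.12 CPM. All 9 tested genes of motile cilia rose, and 5 more had too few counts. Foxj1, the master factor of motile cilia, was at 1.30, 1.05 and 1.15 CPM in the MEF libraries and 27.1, 55.8 and 23.8 CPM in the D7 libraries, with D7 replicate 2 above the other two. Dnah9, a dynein motor of motile cilia, reached only 0.592, 0.630 and 0.464 CPM.

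**Figure D3:**
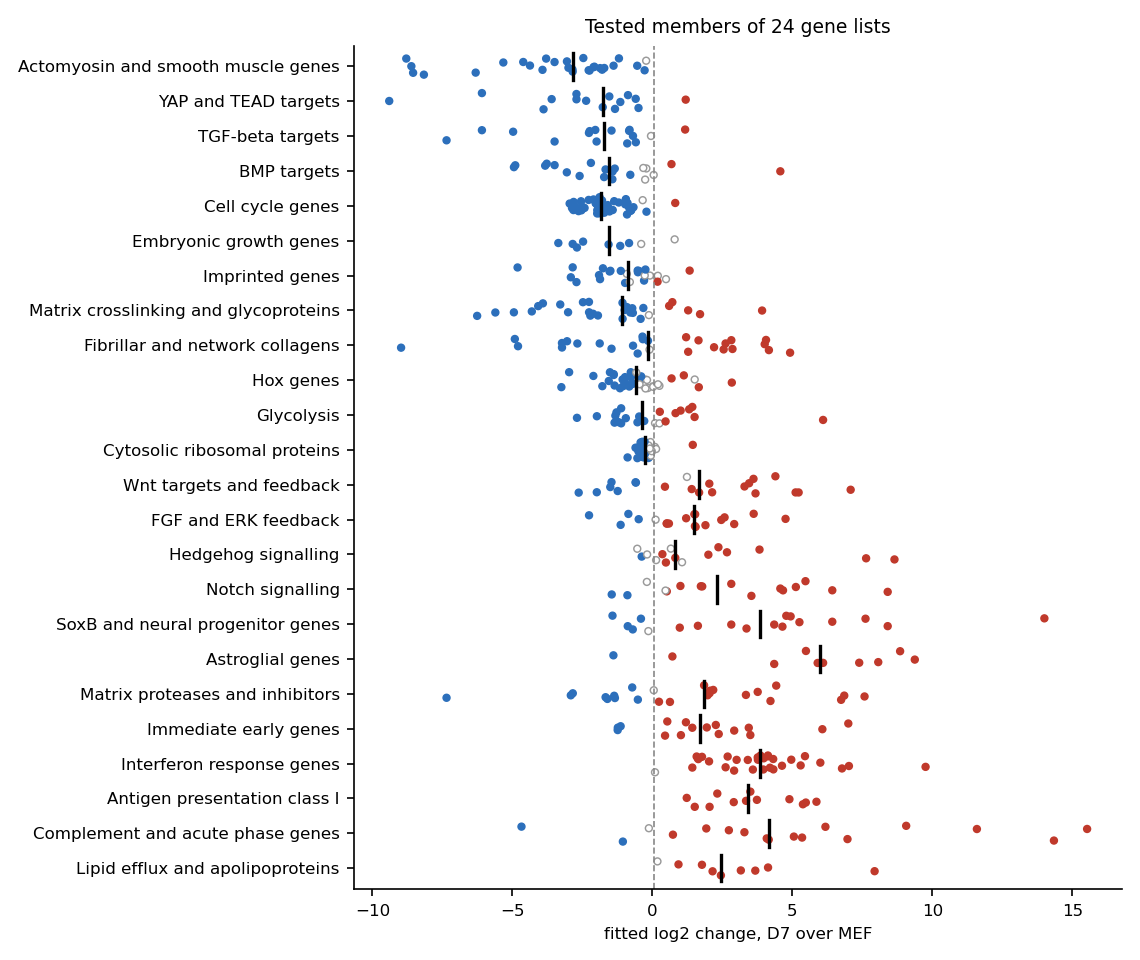
Fitted log2 change of D7 over MEF (horizontal axis) for every tested member of 24 gene lists (1 point a gene; red rose, blue fell, open did not pass), with the median of each list as a black bar and that of all genes as a dashed line. Contractile, TGF-beta and cell cycle lists lie to the left, and glial, interferon and class I lists to the right.

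Of 14 eye-field and optic factors, which the first stage of the protocol is meant to induce, 7 had too few counts to be tested. Rax, an early eye-field factor, was at 0.234 CPM in MEF and 0.0662 CPM at D7, and Six3 at 0.0981 CPM in MEF and 0.117 CPM at D7. Six6 and Otx2 had 0 counts in MEF, and at D7 Six6 was at 0, 0 and 0.0244 CPM and Otx2 at 0, 0.0467 and 0 CPM. Of the 7 factors tested, 4 rose, 1 fell and 2 missed the threshold. Pax6, a regulator of both eye and neural tube, was at 0.712, 0.610 and 0.460 CPM in the MEF libraries and 17.95, 20.8 and 10.3 CPM in the D7 libraries, a log2 change of 4.78 (SE 0.32, adjusted p = 8.07e-07). Mitf, the melanocyte and RPE factor, was at 3.87, 3.63 and 3.71 CPM in the MEF libraries and 15.1, 15.6 and 15.96 CPM in the D7 libraries, a log2 change of 2.06 (SE 0.11, adjusted p = 1.10e-07). Neither gene overlapped between the groups. Lhx2 changed by -0.38 (SE 0.27, adjusted p = 0.230) and did not pass, nor did Vax2. Otx1 rose from 0.0376 ± 0.0326 to 0.968 ± 0.255 CPM, and Tbx5, a dorsal eye and limb factor, fell from 6.99 ± 0.321 to 1.79 ± 0.473 CPM. Of 22 genes of RPE function, 11 were tested, of which 8 rose and 3 fell, where 36.8% of all genes tested rose and 34.5% fell. Several that rose stayed low: Rlbp1, which carries retinal, went from 0.0796 ± 0.0691 to 0.659 ± 0.0912 CPM, Stra6, the retinol-binding protein receptor, from 0.205 ± 0.0888 to 1.88 ± 0.104 CPM, and Rdh5, a retinol dehydrogenase, from 0.959 ± 0.141 to 6.89 ± 3.25 CPM. Mertk, the receptor for engulfment of outer segments, rose from 24.03 ± 1.05 to 42.8 ± 4.67 CPM, and the keratins Krt8 and Krt18 fell, from 13.2 ± 1.40 to 1.26 ± 0.340 CPM and 19.6 ± 0.357 to 2.82 ± 0.926 CPM. Serpinf1, a secreted factor of the RPE, fell from 132 ± 6.73 to 97.8 ± 10.3 CPM, a call that ended with library totals and in a model of all 14 libraries. Of 7 pigment genes, 6 had too few counts. Of 10 genes of retinoid handling tested, 4 rose, 5 fell and 1 missed the threshold: Crabp1 rose from 140.1 ± 2.66 to 539.7 ± 66.3 CPM. Aldh1a2, which makes retinoic acid, rose from 6.33 ± 0.420 to 21.3 ± 4.23 CPM, while the receptor Rarb, 38.4% of whose exon bases are shared, fell from 3.29 ± 0.449 to 0.242 ± 0.176 CPM. Crabp2 fell from 26.8 ± 1.39 to 2.31 ± 0.958 CPM.

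Interferon response genes rose almost without exception. Of 31 tested, 30 rose, all by 2-fold or more, against 21.6% of all genes, with a median change of 3.86; the remaining gene, Ifit2, stood at 22.1, 20.6 and 20.9 CPM in the MEF libraries and 21.1, 27.2 and 19.5 CPM in the D7 libraries and did not pass. Oasl2, of the oligoadenylate synthetase family that senses double-stranded RNA, was at 0.650, 0.499 and 0.632 CPM in the MEF libraries and 53.8, 87.3 and 53.5 CPM in the D7 libraries, a log2 change of 6.77 (SE 0.28, adjusted p = 4.22e-08). Mx1, an antiviral GTPase, went from 0 counts to 2.90, 2.96 and 2.85 CPM, at least 99.9-fold higher. Mx2 rose from 0.0583 ± 0.00330 to 7.95 ± 2.29 CPM. Bst2, which tethers virions, rose from 14.3 ± 1.603 to 115 ± 13.4 CPM. D7 replicate 2 had the highest sum of the list, 1087 CPM against 848 and 773 CPM, and MEF libraries held 149 to 153 CPM. The interferon genes Ifnb1, Ifna4, Ifng and Ifnl3 had 0 counts in all 6 libraries, which allows up to 3 counts in a library, or 0.0700 to 0.0929 CPM.

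Interferon-activated factors bind such genes at the interferon-stimulated response element, with the core letters GAAANNGAAA. The core was found, on either strand in the 250 bases before the start, in 12 of the 22 interferon genes with a RefSeq promoter (54.5%), against 376 of 12096 tested genes (3.11%), and in 2 of 10 class I genes (20.0%), B2m and H2-T23. Matches could overlap. Stretches around the matches of 4 genes, chosen for their matches after their values were seen, are printed 5′ to 3′ with the core in capitals, on whichever strand it lies.
Isg15 (chr4:156200845-156200926, minus strand): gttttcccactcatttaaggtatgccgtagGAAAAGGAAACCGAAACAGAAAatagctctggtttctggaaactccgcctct
Ifit1 (chr19:34640755-34640843, plus strand): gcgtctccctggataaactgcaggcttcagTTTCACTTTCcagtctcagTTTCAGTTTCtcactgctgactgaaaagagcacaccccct
Ifit3 (chr19:34583343-34583446, plus strand): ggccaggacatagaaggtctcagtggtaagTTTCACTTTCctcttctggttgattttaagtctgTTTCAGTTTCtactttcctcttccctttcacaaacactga
Oas1a (chr5:120907526-120907575, minus strand): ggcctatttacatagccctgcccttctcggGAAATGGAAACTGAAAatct

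Each of the 4 rose. Isg15, a ubiquitin-like modifier, was at 1.11, 1.11 and 1.72 CPM in the MEF libraries and 19.2, 21.6 and 16.6 CPM in the D7 libraries, with 3 overlapping matches that begin 78 to 66 bases before the start. Ifit1, which binds foreign RNA caps, was at 1.11, 0.444 and 0.920 CPM in the MEF libraries and 32.296, 47.5 and 27.6 CPM in the D7 libraries, with matches 104 and 85 bases before the start, and its neighbour Ifit3 at 2.63, 3.08 and 3.74 CPM in the MEF libraries and 42.1, 67.9 and 37.3 CPM in the D7 libraries, with matches at 156 and 122. Oas1a, with matches at 20 and 14, was at 0.433, 0.555 and 0.575 CPM in the MEF libraries and 11.3, 11.2 and 9.004 CPM in the D7 libraries. D7 replicate 2 was the highest library in Isg15, Ifit1 and Ifit3, and no gene of the 4 overlapped between the groups.

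Genes of antigen presentation rose as well. All 12 genes of the class I pathway rose by 2-fold or more, with a median change of 3.42, where 21.6% of all genes did. H2-D1, a classical class I heavy chain, was at 110.3, 122 and 112 CPM in the MEF libraries and 1384, 1222 and 1278 CPM in the D7 libraries, a log2 change of 3.50 (SE 0.07, adjusted p = 1.80e-10), although reads of near-identical class I genes may be split between copies. Psmb9, a subunit of the immunoproteasome, rose from 0.215 ± 0.0428 to 12.6 ± 0.381 CPM, Psmb8 from 0.561 ± 0.0687 to 23.4 ± 1.02 CPM and H2-Q4 from 3.87 ± 0.631 to 172 ± 16.1 CPM. Acute phase and complement genes rose in 14 of 17 cases, against 36.8% of all genes. C3, the central complement component, stood at 1.67, 1.44 and 1.44 CPM in the MEF libraries and 825, 788 and 818 CPM in the D7 libraries, a log2 change of 9.06 (SE 0.09, adjusted p = 2.94e-12). C1qa, which macrophages make, fell from 6.89 ± 0.273 to 0.261 ± 0.138 CPM, and Cd59a, an inhibitor of the membrane attack complex, fell from 6.44 ± 1.22 to 3.12 ± 1.23 CPM.

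NF-kappaB feedback genes rose for the most part. The medium holds an IKK inhibitor, and its part was not tested. Of 8 feedback genes, 7 rose and 1 missed the threshold, where 36.8% of all genes rose and 34.5% fell. Nfkbia, the inhibitor that NF-kappaB induces, was at 19.9, 21.9 and 21.9 CPM in the MEF libraries and 97.1, 99.3 and 95.1 CPM in the D7 libraries, a log2 change of 2.19 (SE 0.07, adjusted p = 2.11e-09). Birc3 rose from 12.2 ± 0.265 to 41.4 ± 2.23 CPM, Nfkbie from 3.70 ± 0.674 to 11.99 ± 0.902 CPM and Nfkbiz from 47.2 ± 2.87 to 144 ± 21.1 CPM. Chemokines rose in 12 of 15 cases. Ccl2, which attracts monocytes, stood at 43.2, 44.6 and 43.5 CPM in the MEF libraries and 287, 324 and 311 CPM in the D7 libraries. Ccl11, which attracts eosinophils, rose from 0.0619 ± 0.107 to 14.8 ± 1.35 CPM. Ccl8 rose from 0.175 ± 0.00991 to 15.5 ± 3.84 CPM. Cxcl12, the constitutive chemokine of stroma, fell instead, from 307 ± 10.2 to 16.1 ± 1.92 CPM, as did Cxcl14, from 82.6 ± 3.30 to 16.4 ± 3.52 CPM, and Ccl3, from 1.23 ± 0.158 to 0.226 ± 0.209 CPM. Of 8 cytokines tested, 5 rose and 1 fell, with Il33, an alarmin, from 0.938 ± 0.508 to 57.7 ± 9.90 CPM and Csf1, the macrophage growth factor, down from 707 ± 18.6 to 231 ± 2.06 CPM. Il6 did not pass, at -0.68 (SE 0.44, adjusted p = 0.184), though it fell without D7 replicate 3 at -1.28 (adjusted p = 0.0192).

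Matrix genes moved in both directions. Of 27 collagen chains, 12 rose, 14 fell and 1 missed the threshold, against 36.8% of all genes higher and 34.5% lower, with a median of -0.16 that became 0.13 with library totals. Col3a1, the fibrillar chain that accompanies type I in soft tissue, was at 526, 504 and 523 CPM in the MEF libraries and 3057, 2852 and 3139 CPM in the D7 libraries, a log2 change of 2.54 (SE 0.06, adjusted p = 2.69e-10). Col1a1 was at 7691, 7678 and 7314 CPM in the MEF libraries and 2946, 2519.8 and 2776 CPM in the D7 libraries, a log2 change of -1.46 (SE 0.06, adjusted p = 1.94e-08). Type VI rose, with Col6a3 at 408, 402 and 409.8 CPM in the MEF libraries and 2439, 2458 and 2555 CPM in the D7 libraries, and so did Col18a1, a basement membrane chain, at 114, 131 and 119.7 CPM in the MEF libraries and 2213, 2176 and 2119.8 CPM in the D7 libraries. The MEF and D7 libraries did not overlap in any of these 4 chains. Col5a3 rose from 18.9 ± 1.87 to 314 ± 29.8 CPM. Col9a3 rose from 2.47 ± 0.721 to 74.3 ± 7.06 CPM. Col8a1 fell from 290.2 ± 5.003 to 9.60 ± 2.83 CPM. Col4a3 fell from 2.89 ± 0.0863 to 0.100 ± 0.0468 CPM. Of 9 small leucine-rich proteoglycans tested, which bind collagen fibrils, 3 rose and 6 fell. Dcn, decorin, stood at 40.1, 37.9 and 33.4 CPM in the MEF libraries and 972, 1009.8 and 929 CPM in the D7 libraries, a log2 change of 4.71 (SE 0.08, adjusted p = 9.12e-11). Omd fell from 2.35 ± 0.234 to 0.0849 ± 0.0328 CPM. Aspn fell from 8.25 ± 2.30 to 0.419 ± 0.273 CPM. Of 7 large proteoglycans, 3 of neural tissue rose, Ncan from 0.552 ± 0.273 to 227 ± 50.3 CPM, Bcan from 0.610 ± 0.0221 to 232 ± 13.8 CPM and Cspg5 from 0.494 ± 0.0269 to 105 ± 1.81 CPM, and 3 fell, with Hspg2, perlecan, from 3912 ± 170.0 to 1839 ± 82.3 CPM and Acan, the aggrecan of cartilage, from 5.45 ± 0.785 to 0.341 ± 0.250 CPM. Vcan, versican, did not pass, at 0.07 (SE 0.06, adjusted p = 0.292).

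Most crosslinking genes and most glycoproteins of the matrix fell, and many enzymes that degrade the matrix rose. Of 13 crosslinking genes, 11 fell, 1 rose and 1 missed the threshold, where 34.5% of all genes fell and 36.8% rose. Lox, lysyl oxidase, was at 1828, 1978 and 1869 CPM in the MEF libraries and 24.01, 22.8 and 27.3 CPM in the D7 libraries, a log2 change of -6.26 (SE 0.09, adjusted p = 2.20e-11), and Loxl4 fell from 318 ± 9.32 to 10.3 ± 0.554 CPM, while Loxl2 did not pass, at -0.13 (SE 0.06, adjusted p = 0.0685). Among 16 glycoproteins, 12 fell and 4 rose; Spon1 rose from 8.80 ± 0.788 to 133 ± 6.60 CPM, Fbln1 from 59.9 ± 4.08 to 195 ± 13.8 CPM and Thbs2 from 342 ± 5.41 to 829 ± 6.43 CPM. Of 19 proteases, 13 rose, 5 fell and 1 missed the threshold. Mmp3, stromelysin, stood at 6.44, 4.66 and 4.66 CPM in the MEF libraries and 522, 715 and 575 CPM in the D7 libraries, a log2 change of 6.85 (SE 0.18, adjusted p = 2.20e-09). Mmp9 rose from 0.700 ± 0.211 to 134 ± 17.7 CPM. Mmp2 rose from 421 ± 10.2 to 1734 ± 118 CPM. Adamts5 fell from 193 ± 1.80 to 25.6 ± 0.345 CPM. Of 6 inhibitors 4 fell and 2 rose: Timp3 fell from 590.2 ± 16.5 to 82.2 ± 8.75 CPM and Timp4 rose from 0.226 ± 0.158 to 24.2 ± 10.7 CPM.

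Most genes of dividing cells fell. Of 44 cell cycle genes, 42 fell, 1 rose and 1 missed the threshold, with a median of -1.84; all 18 mitosis genes fell by 2-fold or more, against 14.2% of all genes. Rrm2, which makes deoxynucleotides, was at 274, 255 and 261 CPM in the MEF libraries and 35.4, 33.1 and 39.4 CPM in the D7 libraries, a log2 change of -2.87 (SE 0.08, adjusted p = 8.10e-10). Aurka, a mitotic kinase, fell from 88.3 ± 1.94 to 11.3 ± 3.11 CPM. Birc5, survivin, fell from 62.5 ± 0.602 to 8.85 ± 1.76 CPM. E2f2 rose from 2.35 ± 0.421 to 4.15 ± 0.552 CPM. Cdt1, which licenses replication, changed by -0.35 (SE 0.18, adjusted p = 0.106) and did not pass, but did with the replicate block, with DESeq2, with limma-voom, with no filter and without D7 replicate 3, in the last at -0.52 (adjusted p = 0.0158). The D-type cyclins, which carry growth signals to RB, all fell: Ccnd1 from 558 ± 16.1 to 367 ± 59.1 CPM, Ccnd2 from 1081 ± 46.2 to 397 ± 47.9 CPM and Ccnd3 from 245 ± 8.004 to 119 ± 0.873 CPM. Their partner Cdk4 fell from 427 ± 7.01 to 259 ± 16.3 CPM, Cdk6 did not pass, and among the RB family Rb1 rose from 16.8 ± 1.34 to 33.8 ± 6.60 CPM, Rbl2 rose from 23.4 ± 0.167 to 30.005 ± 4.21 CPM and Rbl1 fell from 23.1 ± 0.177 to 14.8 ± 1.30 CPM. Of 7 CDK inhibitors, 4 rose and 2 fell, where 36.8% of all genes rose and 34.5% fell. Cdkn2a, the locus of p16 and p19ARF, was at 50.2, 49.99 and 51.0 CPM in the MEF libraries and 211, 231 and 209 CPM in the D7 libraries, a log2 change of 2.11 (SE 0.06, adjusted p = 1.63e-09). Cdkn1a, p21, rose from 643 ± 27.7 to 889 ± 10.5 CPM, a call that ended in a model of all 14 libraries, at 0.44 (adjusted p = 0.0552). Cdkn1c, p57, 30.7% of whose exon bases are shared with another gene, fell from 36.6 ± 2.07 to 9.77 ± 2.02 CPM. Of 14 p53 targets, 7 rose, 3 fell and 4 missed the threshold, with Fas from 7.58 ± 1.27 to 34.5 ± 0.954 CPM, Trp53inp1 from 57.5 ± 2.65 to 181 ± 24.3 CPM, and, among those that fell, Perp from 98.3 ± 5.95 to 38.02 ± 5.75 CPM and Ccng1 from 828 ± 4.79 to 344 ± 31.2 CPM.

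Growth genes of the embryo and imprinted genes fell for the most part. Igf2, the imprinted fetal growth factor, was at 467, 473 and 425 CPM in the MEF libraries and 65.4, 67.1 and 57.2 CPM in the D7 libraries, a log2 change of -2.85 (SE 0.08, adjusted p = 1.01e-09), with 64.5% of its exon bases shared with other genes. Of 9 embryonic growth genes tested, 7 fell and 2 missed the threshold, though 1 rose with library totals, with no filter or without D7 replicate 2, with Igf2bp1, which binds growth transcripts, from 104 ± 1.95 to 16.1 ± 1.71 CPM, Lin28b from 1.08 ± 0.232 to 0.106 ± 0.113 CPM and Hmga1 from 1463 ± 29.0 to 821 ± 127 CPM. Of 24 imprinted genes, 2 rose, 16 fell and 6 missed the threshold, against 36.8% of all genes higher and 34.5% lower. H19, the imprinted noncoding RNA next to Igf2, fell from 3230.3 ± 165 to 883 ± 154 CPM, Grb10 from 1216 ± 21.7 to 161 ± 7.36 CPM and Phlda2 from 1.03 ± 0.174 to 0.0318 ± 0.0276 CPM. Nnat rose from 24.2 ± 1.72 to 60.8 ± 10.1 CPM, a call that ended in a model of all 14 libraries, at 1.30 (adjusted p = 0.0678). Igf2r, which rose from 875 ± 20.1 to 994 ± 55.6 CPM, lost its call without MEF replicate 1, at 0.16 (adjusted p = 0.0736), without MEF replicate 3, at 0.18 (adjusted p = 0.0545), and in the model of all 14 libraries, at 0.15 (adjusted p = 0.385). The number of imprinted genes that rose was thus 0 in that model and 1 without either of those MEF libraries, and it was 4 with library totals or without D7 replicate 2. Of 13 genes of the insulin-like growth factor axis, 8 rose and 5 fell, with Igfbp2 from 130.0 ± 3.60 to 663 ± 145 CPM, Irs2 from 53.5 ± 2.60 to 187 ± 22.6 CPM, and Igfbp6 and Igfbp7 down from 66.0 ± 3.94 to 10.7 ± 1.23 CPM and 354 ± 45.2 to 103 ± 15.2 CPM.

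Enzymes of DNA methylation moved apart. Dnmt3a, which methylates new sites, was at 43.9, 44.6 and 44.1 CPM in the MEF libraries and 192, 179 and 191 CPM in the D7 libraries, a log2 change of 2.08 (SE 0.06, adjusted p = 1.27e-09). Dnmt1, which copies methylation at replication, was at 265, 242 and 258 CPM in the MEF libraries and 159, 134 and 165 CPM in the D7 libraries, a log2 change of -0.74 (SE 0.08, adjusted p = 2.07e-05). Neither gene overlapped between the groups. Uhrf1, the partner of Dnmt1, fell from 142 ± 3.04 to 58.7 ± 11.99 CPM, and the dioxygenases that oxidise methylcytosine rose, Tet1 from 3.01 ± 0.215 to 12.2 ± 1.49 CPM, Tet2 from 12.6 ± 0.724 to 58.6 ± 7.80 CPM and Tet3 from 49.6 ± 1.28 to 90.5 ± 3.32 CPM. Dnmt3l rose from 0.116 ± 0.0549 to 0.902 ± 0.488 CPM. Dnmt3b rose from 1.96 ± 0.625 to 3.41 ± 0.369 CPM, a call that ended without MEF replicate 2, at 0.78 (adjusted p = 0.0504), without MEF replicate 3, at 0.58 (adjusted p = 0.0593), or without D7 replicate 1, at 0.71 (adjusted p = 0.0585). Tdg, which excises the oxidised base, did not pass, at 0.22 (SE 0.10, adjusted p = 0.0693), but did without D7 replicate 2, at 0.31 (adjusted p = 4.95e-04), and under 4 of the other alternatives. Germline genes that DNA methylation keeps silent stayed near the floor: 21 of 22 had too few counts, and the remaining one, Ddx4, changed by -0.78 (SE 0.48, adjusted p = 0.171), and passed without D7 replicate 2, at -1.32 (adjusted p = 0.0193). Of 21 genes of pluripotency and endoderm, 13 had too few counts, Pou5f1 among them with 0 in all 6 libraries. Esrrb rose from 0.0561 ± 0.0555 to 2.24 ± 0.231 CPM, Sox7 from 1.99 ± 0.334 to 24.97 ± 4.26 CPM and Klf4 from 157 ± 3.82 to 227 ± 38.9 CPM, though Klf4 lost its call in a model of all 14 libraries, at 0.50 (adjusted p = 0.125). Gata4 fell from 21.7 ± 1.14 to 2.71 ± 0.719 CPM, Klf5 from 77.3 ± 7.02 to 20.4 ± 4.05 CPM and Foxa1 from 1.18 ± 0.294 to 0.320 ± 0.291 CPM.

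Genes of position and of mesenchyme fell in part, where 36.8% of all genes rose and 34.5% fell. Of 37 Hox genes tested, which record position along the body axis, 4 rose, 20 fell and 13 missed the threshold, with a median change of -0.58. The medians of clusters B and D, -0.19 and -0.13, became 0.09 and 0.16 with library totals. Within cluster D the changes ran from 2.83 (SE 0.39) in Hoxd3, 1.66 (SE 0.32) in Hoxd4 and 0.68 (SE 0.14) in Hoxd8 to -3.25 (SE 0.44) in Hoxd12 and -2.11 (SE 0.21) in Hoxd13. The call of Hoxd8 ended in a model of all 14 libraries, at 0.65 (adjusted p = 0.0503). Hoxd3 and Hoxd4 share 62.8% and 52.3% of their exon bases with other genes, so their levels are uncertain. Hoxa2 was the member of cluster A that rose, from 2.58 ± 0.311 to 5.61 ± 0.844 CPM, and in clusters B and C no member rose with TMM scaling, while with library totals Hoxb8 did in cluster B. Hoxc5 fell from 16.2 ± 0.0975 to 2.04 ± 0.407 CPM. Hoxb9, of the trunk, fell from 69.7 ± 1.79 to 27.3 ± 2.94 CPM. With TMM scaling Hoxb8 did not pass, at 0.25 (SE 0.11, adjusted p = 0.0720), but did with the replicate block, under either other filter and without D7 replicate 3, in the last at 0.37 (adjusted p = 0.00396). Of 28 mesenchymal transcription factors, 9 rose (5 in the model of all 14 libraries), 14 fell and 5 missed the threshold. Prrx1, of limb mesenchyme, fell from 370.4 ± 13.7 to 155 ± 11.2 CPM. Foxc2 fell from 56.5 ± 5.14 to 3.01 ± 0.467 CPM. Osr2 rose from 3.41 ± 0.518 to 29.1 ± 5.66 CPM, Foxf2 from 6.52 ± 0.492 to 20.4 ± 2.83 CPM and Zeb2 from 78.1 ± 1.21 to 119 ± 6.96 CPM. Runx2, the master factor of bone, did not pass, at -0.15 (SE 0.07, adjusted p = 0.0821). Of 11 cadherins tested, 6 rose and 4 fell, with Cdh20 from 0.193 ± 0.0255 to 45.2 ± 4.58 CPM, Cdh4 from 11.1 ± 1.01 to 99.5 ± 13.4 CPM, Cdh3, P-cadherin, down from 60.3 ± 1.91 to 0.864 ± 0.219 CPM and Cdh11 down from 319 ± 6.45 to 165 ± 28.5 CPM.

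**Figure D4:**
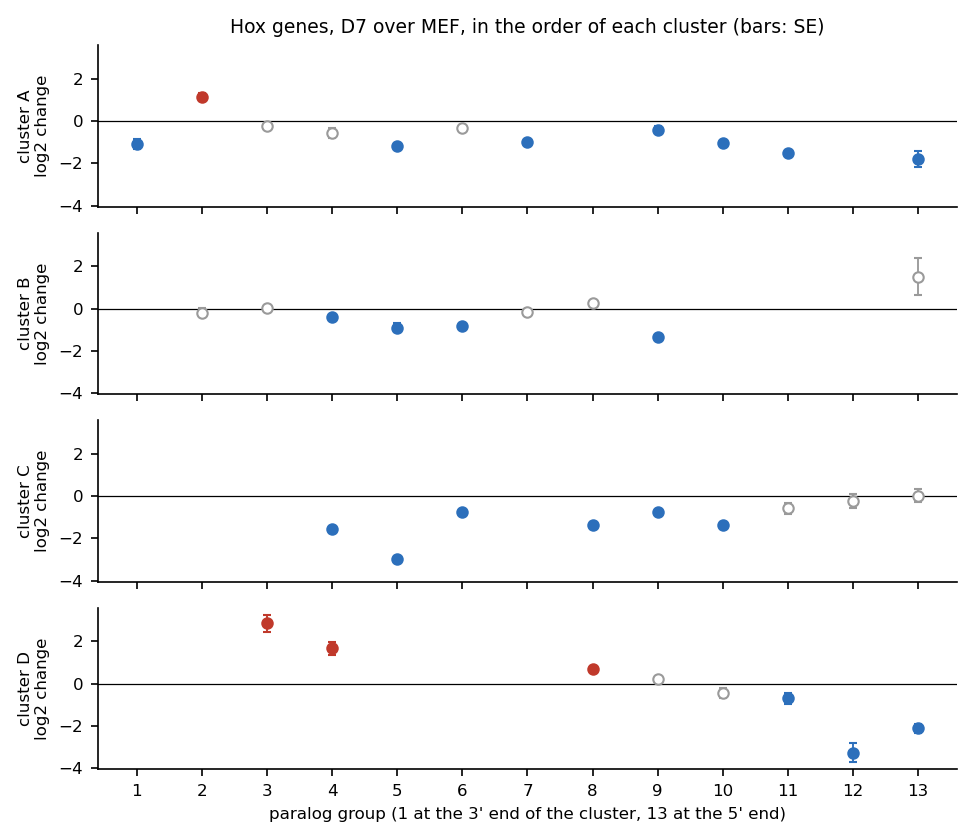
Fitted log2 change of D7 over MEF with its SE (vertical axis) for each tested Hox gene, by paralog group (horizontal axis), in 4 panels for clusters A to D; red rose, blue fell, open did not pass. Falls predominate in clusters A and C, and in cluster D the values go from 2.83 in Hoxd3 to -3.25 in Hoxd12.

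Counts of lipid, glucose and mitochondrial genes are set against 36.8% of all genes higher and 34.5% lower. Of 19 sterol synthesis genes, 15 fell, 1 rose and 3 missed the threshold, with a median change of -0.89. Fdps, an enzyme of the mevalonate pathway with near-identical copies that make its counts uncertain, fell from 5.64 ± 0.424 to 1.08 ± 0.147 CPM, and Srebf2, the factor that drives sterol synthesis, did not pass, at -0.04 (SE 0.09, adjusted p = 0.678). Genes that export lipid rose in 8 of 9 cases: Abca1, a cholesterol exporter, stood at 38.3, 37.99 and 40.9 CPM in the MEF libraries and 466, 613 and 417 CPM in the D7 libraries. Apoe rose from 158 ± 3.76 to 1409 ± 72.9 CPM, Apod from 2.13 ± 0.0875 to 522 ± 85.7 CPM and Pltp from 24.6 ± 2.42 to 429.8 ± 42.2 CPM. Of 10 fatty acid genes, 5 rose and 4 fell with TMM scaling, and 6 and 2 with library totals, with Scd2 from 947 ± 33.9 to 1753 ± 102 CPM and Srebf1, the factor that drives them, from 139.7 ± 3.71 to 323 ± 72.3 CPM. Fasn, fatty acid synthase, fell from 790.0 ± 12.6 to 636 ± 19.9 CPM, a call that ended with library totals at -0.03 (adjusted p = 0.624). In glycolysis, 12 of 22 genes fell and 8 rose with TMM scaling (11 and 10 with library totals), so that the share higher was near that of all genes. Aldoc, the brain aldolase, was at 2.94, 3.55 and 3.91 CPM in the MEF libraries and 204, 285 and 224 CPM in the D7 libraries. Pfkm rose from 45.2 ± 1.02 to 128 ± 19.97 CPM. Ldhb rose from 65.1 ± 2.58 to 175 ± 27.6 CPM. Gapdh fell from 3894 ± 95.3 to 1556 ± 115 CPM, Pkm from 3762 ± 40.4 to 1472 ± 17.4 CPM and Hk2 from 107 ± 5.28 to 27.1 ± 5.19 CPM. The mitochondrial genome's genes rose in 11 of 13 cases, with mt-Co1 at 5669, 5404 and 5394 CPM in the MEF libraries and 13148, 13200.3 and 13403 CPM in the D7 libraries, a log2 change of 1.27 (SE 0.04, adjusted p = 4.55e-09), and took 3.30% to 3.67% of all counts at D7 against 1.27% to 1.39% in MEF. Some of them, such as mt-Co2 at 1.17 CPM in MEF and 3.53 CPM at D7 and mt-Atp6 at 1.09 CPM in MEF and 3.40 CPM at D7, have near-identical copies in nuclear DNA, and their counts are uncertain. Of 24 nuclear subunits of the respiratory chain, 6 rose, 4 fell and 14 missed the threshold, but with library totals 18 rose and 1 fell. Of the mitochondrial and nuclear genes of the chain together 17 rose, and 10 in a model of all 14 libraries. Cytosolic ribosomal protein genes, 24 lower and 1 higher of 37 with TMM scaling, were 8 lower and 14 higher with library totals and had 3 higher without D7 replicate 2, and their median went from -0.28 to 0.01. The most abundant that fell, Rps2, went from 3613 ± 122 to 1953 ± 99.5 CPM. Of 16 ribosome biogenesis genes, 14 fell and 2 missed the threshold (11 fell and 0 rose with library totals), with Ncl, nucleolin, from 1046 ± 36.5 to 621 ± 124 CPM and Nop58 from 126 ± 1.45 to 58.5 ± 13.9 CPM.

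Stress and clearance genes went in both directions, and their counts are set against 36.8% of all genes higher and 34.5% lower. Of 12 chaperones of the endoplasmic reticulum, 10 fell and 1 rose, with Calr, calreticulin, from 2205 ± 15.6 to 1064 ± 154 CPM and Dnajb9, which rose, from 24.2 ± 0.475 to 34.2 ± 0.569 CPM. In a model of all 14 libraries Dnajb9 did not pass, at 0.47 (adjusted p = 0.0840). Of 9 heat shock genes 5 fell and 1 rose with TMM scaling (4 and 4 with library totals), with Cryab from 216 ± 2.48 to 25.4 ± 0.951 CPM, Hspb1 from 164.4 ± 13.3 to 26.3 ± 7.45 CPM and, among those that rose, Hspa1a from 5.06 ± 0.348 to 11.7 ± 3.04 CPM. Among 19 genes of the integrated stress response, 4 rose and 10 fell: Slc7a11, the cystine transporter, rose from 7.96 ± 1.14 to 83.2 ± 10.2 CPM. Atf3 rose from 9.39 ± 0.358 to 45.1 ± 1.51 CPM. Chac1 fell from 17.5 ± 0.381 to 1.76 ± 0.259 CPM, Trib3 from 13.2 ± 1.25 to 2.08 ± 0.208 CPM and Phgdh, of serine synthesis, from 389 ± 6.37 to 121 ± 9.87 CPM. Of 14 NRF2 targets tested 5 rose and 6 fell with TMM scaling (7 and 5 with library totals), with Gstm1 from 37.6 ± 1.02 to 163 ± 18.6 CPM and Txnrd1 from 558 ± 13.3 to 179 ± 26.1 CPM, and all 3 metallothioneins rose, with Mt3 from 1.61 ± 0.498 to 35.8 ± 5.53 CPM and Mt1 from 116 ± 12.1 to 239 ± 40.1 CPM. Of 8 iron genes 4 rose and 3 fell, with Trf, transferrin, from 6.66 ± 0.0587 to 123 ± 14.3 CPM, 63.5% of whose exon bases are shared. Ftl1, the ferritin light chain, 34.6% of whose exon bases are shared, fell from 1211 ± 30.7 to 462 ± 16.9 CPM. Tfrc, the transferrin receptor, fell from 151 ± 2.26 to 82.7 ± 13.7 CPM. Of 31 lysosome genes 11 rose and 14 fell with TMM scaling (15 and 9 with library totals, and 6 higher in the model of all 14 libraries), with Ctsk from 33.1 ± 1.04 to 149 ± 5.24 CPM, Tfeb, the master factor of lysosomes, from 11.4 ± 1.16 to 29.3 ± 4.00 CPM, Lamp1 from 1002 ± 16.9 to 636 ± 14.1 CPM, and Ctss, a cathepsin of macrophages, from 18.4 ± 0.810 to 0.116 ± 0.0690 CPM. Of 11 hypoxia targets 6 rose and 3 fell, whereas in a model of all 14 libraries 2 rose. Vegfa rose from 78.2 ± 3.47 to 119 ± 16.8 CPM, a call that ended in that model, at 0.57 (adjusted p = 0.142), and Adm, adrenomedullin, went from 101 ± 3.26 to 14.3 ± 3.63 CPM. Of 10 clock genes 8 rose and 1 fell, with Per2 from 5.55 ± 0.0928 to 28.4 ± 3.96 CPM, Per3 from 7.85 ± 1.30 to 36.8 ± 10.03 CPM and Arntl from 31.3 ± 2.02 to 21.6 ± 2.08 CPM, and of 5 glucocorticoid targets 2 rose and 3 fell, with Zbtb16 from 0.0576 ± 0.0556 to 2.28 ± 0.465 CPM and Klf9 from 47.2 ± 3.76 to 24.6 ± 2.64 CPM.

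Markers of other cell types moved with these groups, and their part in the results was not tested. Their counts are set against 36.8% of all genes higher and 34.5% lower. Of 12 macrophage markers, 10 were tested, of which 9 fell and 1 (Cd14) rose, and their sum was 79.6 to 86.3 CPM in MEF and 31.4 to 36.7 CPM at D7. Cartilage markers summed to 930.0 to 953 CPM in MEF and 3.69 to 4.96 CPM at D7, and in MEF nearly all of it was Col2a1. Endothelial markers summed to 54.6 to 59.5 CPM in MEF and 5.58 to 6.95 CPM at D7, of which Kdr held 52.2 CPM in MEF and 1.51 CPM at D7, while of the defining markers Pecam1 was at 0.289 CPM in MEF and 0.368 CPM at D7, Cdh5 at 0.395 CPM in MEF and 1.42 CPM at D7 and Tie1 at 0 counts. Skeletal muscle markers summed to 142 to 144 CPM in MEF and 2.32 to 3.49 CPM at D7, and of 15 genes in a longer muscle list 13 fell, with Acta1 from 123 ± 3.13 to 0.987 ± 0.286 CPM, Myod1 from 0.895 ± 0.160 to 0.0188 ± 0.0325 CPM and Myog from 1.67, 1.83 and 1.15 CPM to 2 counts. Cardiac muscle markers summed to 7.21 to 9.19 CPM in MEF and 1.07 to 1.71 CPM at D7 and surface epithelium markers to 6.16 to 6.88 CPM in MEF and 1.19 to 1.54 CPM at D7; of 15 epithelial genes tested, 11 fell, 3 rose, among them Cldn1 from 3.30 ± 0.242 to 19.09 ± 3.581 CPM, and Tjp1 did not pass. Red cell markers summed to 0.172 to 0.588 CPM in MEF and 0.257 to 0.592 CPM at D7, and markers of T, B and NK cells to 0.555 to 0.619 CPM in MEF and 0.350 to 0.610 CPM at D7, with Cd3e and Ms4a1 at 0 counts. Neural crest markers, of which 4 rose and 2 missed the threshold, summed to 44.3 to 49.2 CPM in MEF and 87.8 to 139 CPM at D7, neuron markers to 63.1 to 69.0 CPM in MEF and 67.7 to 89.5 CPM at D7, astroglial markers, all 6 of which rose, to 16.5 to 19.04 CPM in MEF and 1088 to 1563 CPM at D7, and RPE markers to 0.776 to 1.36 CPM in MEF and 2.42 to 4.08 CPM at D7. Fibroblast markers summed to 17516 to 18022 CPM in MEF and 12799 to 13895 CPM at D7. With TMM scaling 5 were higher and 7 lower at D7, and 5 of each with library totals. Since both groups held these markers, they cannot check the starting label. Cartilage and bone genes beyond these split 5 and 5 with 4 not passing, with Sox9 from 52.5 ± 2.05 to 162 ± 15.2 CPM and Matn3 from 3.06 ± 0.594 to 0.221 ± 0.0527 CPM. Spp1, osteopontin, did not pass, at 0.16 (SE 0.10, adjusted p = 0.159). Of 5 adipocyte genes tested 3 fell, with Pparg from 12.02 ± 0.312 to 2.18 ± 0.243 CPM, and 1, Cebpa, rose from 12.4 ± 1.33 to 92.9 ± 12.97 CPM (2 with library totals, with a mean of at least 5 CPM or without D7 replicate 2).

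Later in the protocol these genes were measured as well, on levels scaled over all 14 libraries (mean ± SD, n = 3, and n = 2 for primary RPE). Acta2 stood at 4592 ± 128 CPM in MEF and 11.5 ± 0.497 at D7, then at 117 ± 8.01 on day 18 and 3406 ± 1179 on day 32. Gli1 went from 148 ± 24.001 at D7 to 11.8 ± 8.36 on day 18 and 9.28 ± 1.39 on day 32, and Nkd1 from 159 ± 18.33 to 14.3 ± 3.18 and 12.7 ± 4.29. Gfap went from 331 ± 18.9 to 26579 ± 5715 and 1539 ± 149, and Foxj1 from 34.5 ± 17.3 to 649.9 ± 109 and 36.6 ± 7.73. Sox1 was at 53.3 ± 16.2, 37.2 ± 6.71 and 3.72 ± 0.498 CPM on the 3 days. Mitf was at 15.1 ± 0.456, 12.0004 ± 3.52 and 21.3 ± 6.45 CPM, with 96.8 ± 8.70 in primary RPE. Dnmt3a, at 181 ± 6.23 CPM on day 7, was at 66.8 ± 5.19 and 58.8 ± 3.85 later. These values are given as a description, and no test between the later groups was made here.

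**Figure D5:**
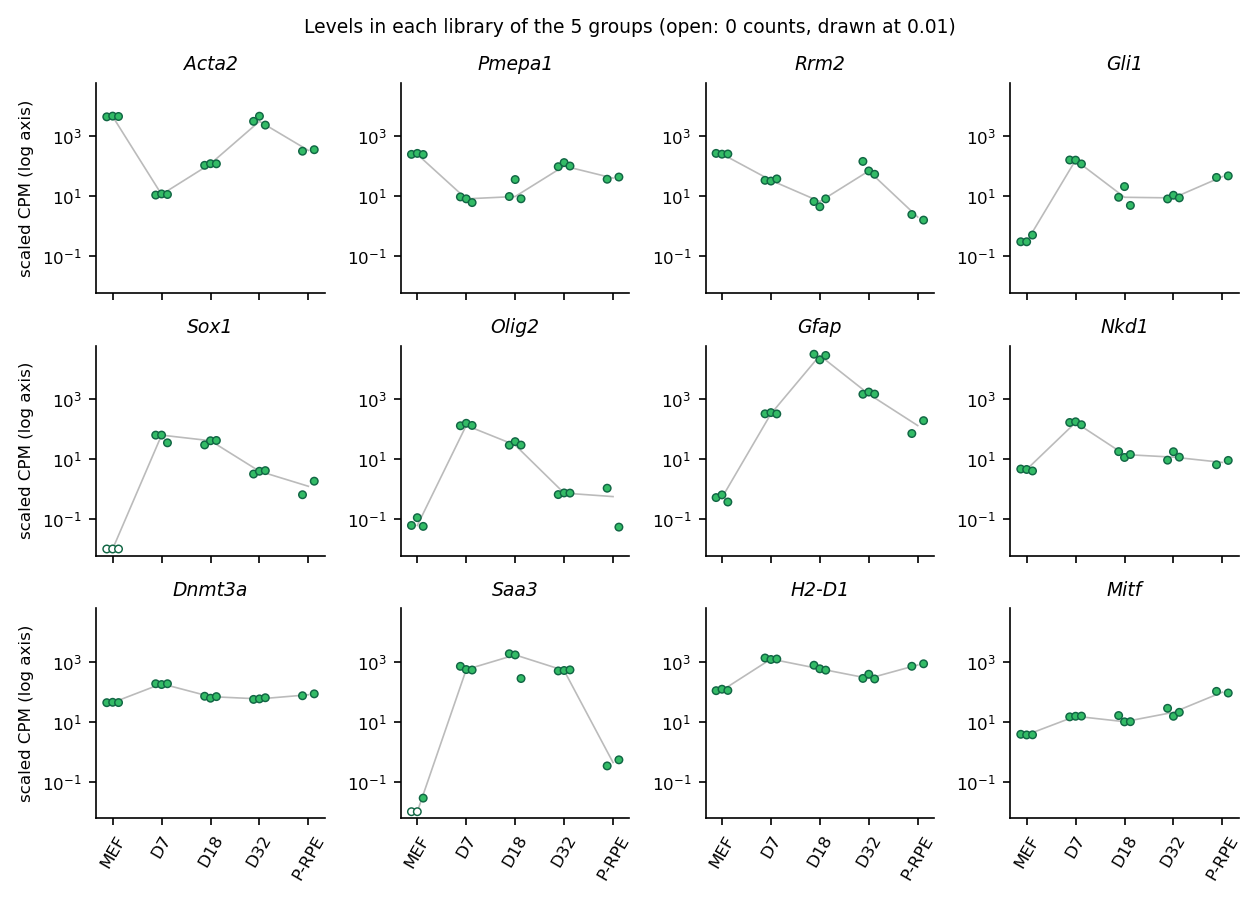
Scaled CPM (log axis) of 12 genes in each library of the 5 groups, MEF, D7, D18, D32 (3 libraries each) and primary RPE (2 libraries), with a line through the medians; open points stand for 0 counts. By group means, Gli1, Olig2, Nkd1 and Dnmt3a are highest at D7 among the groups, Gfap at D18, and Acta2 is lowest at D7.

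On GRCm38 (GENCODE vM21), Acta2 lies on chromosome 19, start 34241090, end 34255590, Gli1 on chromosome 10, start 127329882, end 127341974, Sox1 on chromosome 8, start 12395295, end 12400126, Gfap on chromosome 11, start 102887336, end 102900912, Saa3 on chromosome 7, start 46711998, end 46715700, H2-D1 on chromosome 17, start 35262730, end 35267499 and Col3a1 on chromosome 1, start 45311538, end 45349706. The deposited counts are per gene symbol, and the annotation release they were made with is not given in the sources used here.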

How the data were processed

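Of the 14 mouse RNA-seq libraries (total RNA extracted with TRIzol and an RNeasy kit, NEBNext Ultra libraries, paired-end 150 bases on a NovaSeq 6000, per the labels' protocols), the 3 MEF and 3 D7 libraries were compared. The deposited table holds raw counts per gene symbol, which the authors did not normalise as far as its whole numbers and differing totals show. Per the submitters' processing notes, the tools STAR 2.7.11a, Subread's featureCounts, edgeR 4.0.16 and limma 3.58.1 were used, in roles those notes leave unstated, with the builds mm10 and GRCm38. The strand setting, the handling of multi-mapping reads and the annotation release are not given in the sources used here, so values of genes whose exons overlap another gene, or that have near-identical copies, are uncertain. A human table was not used here.

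The counts were fitted with edgeR 4.0.16 in R 4.3.3 by the robust quasi-likelihood test, with TMM scaling, edgeR's filter on low counts by group and Benjamini-Hochberg adjustment over all 16937 genes tested. A gene was called at an adjusted p under 0.05, and a second count asked for a change of at least 2-fold. The SE is the log2 change divided by the square root of F. Library totals were 32352405 counts or more, and a group without counts was given a floor of 3 counts over the group; intervals and floors cover counting error only. Of the symbols, 53292 (96.4%) matched GENCODE vM21, which gave positions and exon overlaps. Simulated counts with known changes were tested in the same way: 74% of 100 genes changed 2-fold and 96% of 100 changed 4-fold were recovered. There were 10 false calls in a step that tested 16480 genes, the changed ones included. Only these few genes changed there, and each gene had the same spread in both groups. In the data 71.4% of genes passed and the spreads differed (0.0408 in MEF, 0.153 at D7), so these rates do not carry over to the data.

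The 58 gene lists, the separate sets of cell type markers and the comparison itself were chosen with earlier results of these data known. The genes named are the 12 largest changes each way among called genes with at least 10 CPM and no overlap, the 6 largest each way in CPM, for each list the 3 largest called changes either way, the most abundant member called higher and called lower, and the most abundant one not called, all members of a few small groups (Hedgehog targets, Id factors, SoxB, D-type cyclins, DNA methylation enzymes, central eye-field factors), and the 5 most abundant genes with 0 counts in 1 group; most of these are described, the others stand in the counts, and some items are not reported here. Other genes (Vcl, Myl9, Myl6, Cnn2, Srf, Tagln, Isg15, Ifit1, Ifit3, Oas1a, B2m, H2-T23, Foxa2, Shh, Pou5f1, the interferon ligands and markers of other cell types) were named after their values were seen. Promoter sequences came from RefSeq for GRCm38.p6 and were searched over 250 bases before the start. Alternatives were median-ratio (RLE) scaling, library totals alone, no filter, a mean of at least 5 CPM, a replicate block, DESeq2 1.42.0, limma-voom 3.58.1, a model of all 14 libraries and leaving out each library.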

Additional observations from a re-analysis of the deposited data

How the results depend on the processing

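The counts of genes higher and lower at D7 stayed within 1.5 times under every alternative run, except with a mean of at least 5 CPM, where 11238 genes were tested and 1829 were higher and 1287 lower by 2-fold or more. Leaving out each library gave 5857 to 6409 higher and 5387 to 6102 lower genes, and 3604 to 3812 higher and 2394 to 2533 lower by 2-fold or more. The other counts, higher then lower, were 6184 and 5906 with RLE scaling, 8322 and 4020 with library totals, 6836 and 6163 with no filter, 6221 and 5911 with DESeq2, 6204 and 5795 with limma-voom, and 5852 and 5450 in a model of all 14 libraries. Between 84.9% (library totals, where 15 genes were called in the opposite direction) and 99.6% (RLE) of the calls were made in the same direction by each alternative.

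A replicate block gave 6085 higher and 5766 lower genes, 3619 and 2407 by 2-fold or more, with 96.9% of the calls kept, and among the 394 named genes tested ended no call and added those of Id3, Cdt1 and Hoxb8. Deviations of libraries with the same number correlated at 0.0066, 0.016 and 0.028, so the numbers were not taken to pair the libraries, although 3 of 3 D7 libraries correlated best with their own number.

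Of the named genes, 7 reversed with library totals, none of which passed with TMM scaling: Tgfb1 at 0.21, Phlda3 at 0.23, Rela at 0.20, Loxl2 at 0.16, Srebf2 at 0.24, Tkt at 0.26 and Rpl4 at 0.20, by a shift that the scaling itself makes in all genes. Mbp, not called with all libraries, ran from -0.58 without D7 replicate 3 to 0.99 without D7 replicate 1. Library totals ended the calls of 9 named genes and the model of all 14 libraries those of 14, and no filter ended that of Cspg4; the cause was not tested. With a mean of at least 5 CPM, which leaves fewer members tested, the counts of 13 lists moved by over 1.5 times. Depth limits genes near 1 count (0.0233 to 0.0310 CPM).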
